A study of Drosophila melanogaster with 16 samples.

Results

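The mRNAs of the cytosolic ribosomal proteins were followed through a pulse and chase of tagged RNA in the larval brain of Drosophila melanogaster. Members were all genes whose FlyBase symbol starts with RpL or RpS, which leaves out the mitochondrial ribosomal proteins (mRpL and mRpS). The rule found 92 members, 54 named for the large subunit and 38 for the small subunit, among 14228 annotated genes and 230 further transcripts with no gene in the annotation, and all 92 were listed in both deposited tables. Estimated counts of the 233 transcripts of these genes were added up per gene.

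The 16 libraries came from third-instar (L3) brains of 2 genotypes, labelled insc_CD:UPRT and nsyb_CD:UPRT in the records, and are called neuroblast and neuron libraries here. In both, Gal4 drove CD:UPRT, a fusion of cytosine deaminase with uracil phosphoribosyltransferase that turns 5-ethynylcytosine (5EC) into a tagged uridine which cells build into new RNA. The insc (inscuteable) driver targets neural stem cells, the neuroblasts, and the nSyb driver targets mature neurons. All larvae were fed 5EC for 12 h, and were sampled at the end of that pulse or after 3, 6 or 12 h on food with untagged uridine, with 2 libraries for each of the 8 groups. Tagged RNA was biotinylated and captured from total RNA of crudely dissected nervous systems, so tissue attached to the brain was part of the input, and ribosomal RNA was depleted before sequencing. The methods name both separate feedings and duplicate capture reactions, and the labels do not say which of these a replicate library is, so p-values measure only the spread between these libraries, which may be technical.

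Ribosomal proteins are made in matched amounts and assemble with ribosomal RNA into the small and the large subunit of the cytosolic ribosome. Their mRNAs are short, abundant and long-lived in many cell types, and in animals their translation is set through a tract of pyrimidines at the transcript start that responds to growth signals. Neuroblasts grow between their divisions and need many ribosomes, while neurons no longer divide. In a chase, a transcript that decays more slowly than the others takes a growing share of the tagged pool, so levels below are relative to the other RNA of the same library.

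Library make-up differed before any comparison of members. Nuclear-encoded counts were 9717474 to 28537551 in the neuroblast libraries, 4978897 to 13562616 in neuron replicate 1 and 90293558 to 205301755 in neuron replicate 2. Transcripts of the mitochondrial genome took 86.3 to 92.1% of all counts in the 4 libraries of neuron replicate 1, against 2.75 to 12.8% in the other 12. At least 10 counts were found for 76 to 85 members in each neuroblast library, for 69 to 92 in neuron replicate 2, and for 9 at the pulse, 44 at 3 h, 32 at 6 h and 59 at 12 h in neuron replicate 1. The neuron markers fixed for this work (elav, nSyb, brp, Syt1, para, Syn and cac) summed to 2589 to 6675 nuclear CPM (counts per 1000000 nuclear-encoded counts) in neuron libraries and 287 to 1754 in neuroblast libraries, without overlap. The neuroblast markers (ase, wor, dpn, mira, insc and grh) summed to 0.926 to 187 in the neuroblast libraries and 1.81 to 1181 in the neuron libraries, so they did not set the neuroblast libraries apart. In neuroblast replicate 1 after 12 h, ase, wor, dpn and mira were all at 0.

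The summed share of the 92 members was higher after 6 and 12 h of chase than at the pulse in both neuroblast replicates. In neuroblast replicate 1 members made up 1.10% of nuclear-encoded counts at the pulse, 1.18% after 3 h, 2.09% after 6 h and 3.06% after 12 h. In neuroblast replicate 2 the shares were 2.99, 2.77, 4.79 and 6.64%. Most of the gain came after 3 h, the 12 h share was 2.79 times the pulse share in replicate 1 and 2.22 times in replicate 2, and replicate 2 lay above replicate 1 at every time. The 95% Wilson intervals of these shares reached no more than 0.0115 percentage points to either side and cover counting error only, far less than the gap between replicates.

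The neuron replicates differed from each other. In neuron replicate 1 the share was 0.0590% at the pulse, 0.277% after 3 h, 0.0506% after 6 h and 0.324% after 12 h. In neuron replicate 2 it was 2.47, 3.52, 4.21 and 2.34%. The 12 h share was thus 5.49 times the pulse share in replicate 1 and 0.951 times in replicate 2 and every library of replicate 1 lay below every library of replicate 2. The Wilson half-widths were at most 0.0039 percentage points in neurons.

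**Figure D1:**
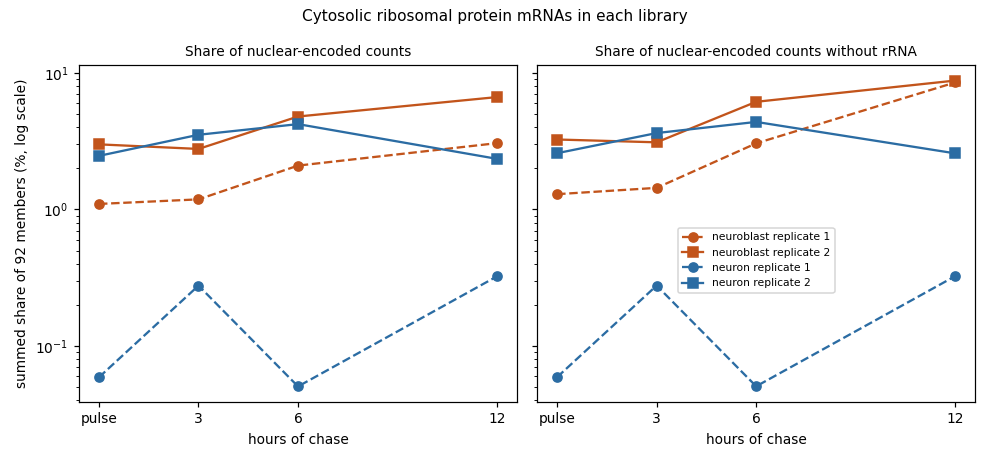
Summed share of the 92 members in each library (y axis, percent, log scale) over hours of chase (x axis), against nuclear-encoded counts (left) and nuclear-encoded counts without ribosomal RNA (right); each point is 1 library and lines join libraries of 1 replicate number. Both neuroblast replicates end above their pulse value, at 3.06 and 6.64% on the left, while neuron replicate 1 stays below 0.33%.

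Ribosomal RNA and rRNA pseudogene transcripts, 23 rows left in the tables after depletion, also took a larger share at 12 h than at the pulse in both neuroblast replicates. They took 15.2% of nuclear-encoded counts at the pulse, 17.6% after 3 h, 31.3% after 6 h and 64.1% after 12 h in replicate 1, and 7.86, 10.6, 22.0 and 24.3% in replicate 2. With these rows removed from the total, the members' share went from 1.29 to 8.50% in replicate 1 and from 3.25 to 8.78% in replicate 2, which is 6.58 and 2.70 times the pulse share. The 12 h libraries, far apart on the full total, were close to each other on this one.

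Single members rose together in the neuroblast chase. Of the 85 members that passed the filter on low counts, 84 had a positive slope over the hours of chase, and the median slope was 0.25 on the log2 scale per hour, against -0.10 for all 10042 genes tested. By edgeR's quasi-likelihood test with Benjamini-Hochberg adjustment over those genes, 15 members rose (adjusted p under 0.05) and none fell, against 0.607% of all genes that rose and 0% that fell. At an unadjusted p under 0.05, 75 members were higher and none lower, against 4.10% and 3.93% of all genes. DESeq2's test called 75 higher and none lower, against 11% and 0.309% of all genes. The large subunit held 9 of the 15 (median slope 0.25 over 51 members tested) and the small subunit 6 (median 0.25 over 34).

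The count of calls depended on the library scaling, on the design and on single libraries, while the direction did not. With the replicate number as a block edgeR called 53 members higher (145 of all genes). The scaling factors (TMM) of the neuroblast fit fell from 1.36 and 1.58 at the pulse to 0.370 and 0.623 after 12 h. With nuclear-encoded total counts in their place edgeR called no member (0.00996% of all genes higher and 0% lower), 3 were higher at an unadjusted p under 0.05 (0.259% of all genes), 84 of 85 slopes stayed positive and the median was 0.12, with the median of all genes at -0.22. The members' median lay 0.32 to 0.51 log2 per hour above that of all genes in each of 12 scalings, filters, tests and designs other than leaving libraries out. Without the 12 h library of replicate 1, in which 1860 nuclear genes had at least 10 counts and 5 genes took 59.5% of nuclear-encoded counts, edgeR called no member (74 higher at an unadjusted p under 0.05, with 4.80% of all genes) and no gene at all, 84 of 86 slopes were positive and the median was 0.26. The count was 2 without the pulse library of replicate 1 (49 of all genes), 7 and 6 without the 3 h library of replicate 1 or 2 (53 and 61), 23 without the 6 h library of replicate 1 (101) and 6 without the 12 h library of replicate 2 (66). It was 50 from replicate 2 alone and 29 from replicate 1 alone (144 and 130 of all genes).

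**Figure D2:**
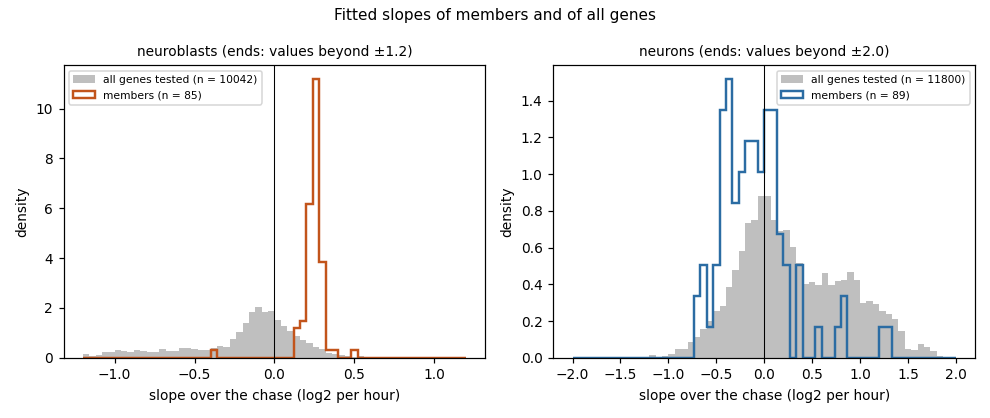
Density (y axis) of fitted slopes over the chase in log2 per hour (x axis) for members (outline) and all genes tested (grey), neuroblasts left and neurons right; values beyond the axis are placed in the end bins. In neuroblasts 84 of 85 members lie above 0 and in neurons 32 of 89.

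With scaling to nuclear-encoded counts without ribosomal RNA, edgeR called no member (50 higher and none lower at an unadjusted p under 0.05, with 1.85% and 7.71% of all genes), against 0.11% of all genes higher and 0.00996% lower, and the median slope was 0.17. The part of the ribosomal RNA in the members' slopes was not tested beyond these scalings. The order of the libraries can be read without any model. In neuroblasts both 12 h libraries lay above both pulse libraries for 34 of 92 members (37.0%), against 1.44% of all 14444 nuclear genes. The reverse, both 12 h libraries below both pulse libraries, held for 1 member and for 32.2% of all nuclear genes. Within replicates, 71 of 92 members were higher at 12 h than at the pulse in replicate 1 and 83 in replicate 2. Of the 14444 nuclear genes, many of them with few or no counts, 1085 and 1966 were. Among the 72 members with at least 10 counts in all 8 neuroblast libraries, the median ratio of 12 h to pulse level was 2.70 in replicate 1 and 2.26 in replicate 2, and for the 1416 nuclear genes that met the same minimum it was 0.636 and 0.521.

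Members with large significant slopes included RpL34b, RpLP1, RpL14 and RpL21. Levels are given in nuclear CPM, at the pulse and after 3, 6 and 12 h. RpL34b, a large-subunit protein gene with a close paralogue, had 23.9, 24.7, 149 and 455 in neuroblast replicate 1 and 161, 186, 498 and 542 in replicate 2. Both 12 h libraries were above both pulse libraries, and the slope was 0.37 ± 0.08 log2 per hour (SE, n = 8 libraries, edgeR adjusted p = 0.0159).

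RpLP1 encodes an acidic protein of the stalk, the flexible arm of the large subunit that recruits translation factors. Its levels were 89.8, 36.5, 171 and 461 in replicate 1 and 188, 199, 451 and 540 in replicate 2, with a slope of 0.32 ± 0.08 (SE, n = 8, edgeR adjusted p = 0.0284). The other stalk genes were RpLP0, the base of the stalk, and RpLP2, the partner of RpLP1. RpLP0 had 177, 492, 481 and 1148 in replicate 1 and 1045, 836, 1845 and 2357 in replicate 2, with a slope of 0.28 ± 0.07 (SE, n = 8, edgeR adjusted p = 0.0206). RpLP2 had 0, 72.2, 79.3 and 381 in replicate 1 and 387, 423, 773 and 975 in replicate 2, and at a slope of 0.30 ± 0.09 it did not pass (edgeR adjusted p = 0.135). In each replicate all 3 stalk genes were highest after 12 h.

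RpL14 had 64.2, 44.4, 159 and 440 in replicate 1 and 332, 279, 566 and 896 in replicate 2, with a slope of 0.30 ± 0.08 (SE, n = 8, edgeR adjusted p = 0.0321). RpL21 had 125, 250, 404 and 548 in replicate 1 and 249, 300, 624 and 733 in replicate 2, with a slope of 0.30 ± 0.08 (SE, n = 8, edgeR adjusted p = 0.0381). For RpL14 and RpL21, both of the large subunit, the lower 12 h library stood above the higher pulse library. Other members past the threshold included RpL4, RpL5, RpL7, RpL10, RpS6, RpS7, RpS9 and RpS10b, with slopes from 0.24 (RpL5) to 0.29 (RpS6).

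**Figure D3:**
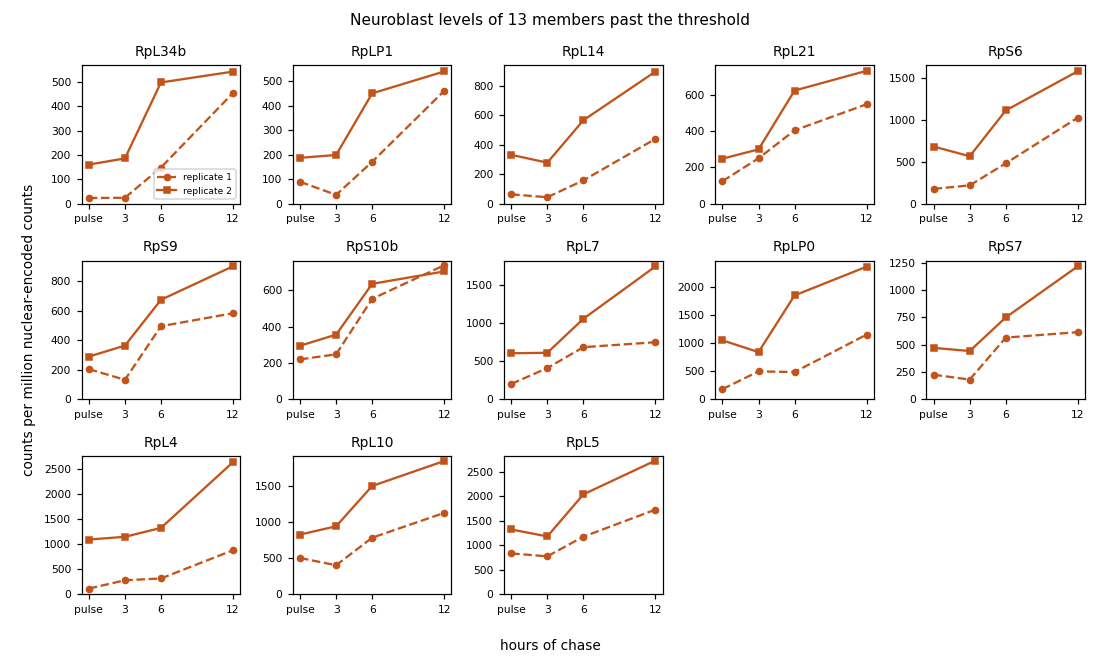
Levels in neuroblast libraries (y axis, nuclear CPM, from 0) over hours of chase (x axis) for 13 of the 15 members past the threshold, replicate 1 dashed and replicate 2 solid. Each is higher at 12 h than at the pulse in both replicates, as for RpL34b, which went from 23.9 to 455 and from 161 to 542.

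The steepest fitted slope belonged to RpL39, a very small protein near the exit tunnel, at 0.51 ± 0.34 log2 per hour (SE, n = 8, edgeR adjusted p = 0.683). Its levels were 0 in every library of neuroblast replicate 1, and 0, 10.3, 6.68 and 32.2 in replicate 2. RpLP0-like, a relative of RpLP0, was the only member with a negative slope, -0.38 ± 0.29 (SE, n = 8, edgeR adjusted p = 0.755). It had 35.0 at the pulse and 0, 0.232 and 0 over the chase in replicate 1, and 41.8, 40.0, 3.37 and 1.44 in replicate 2. In both replicates RpLP0-like was thus highest at the pulse, the 1 member whose 12 h libraries both lay below its pulse libraries.

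RpL40 and RpS27A are made as fusions with ubiquitin, which is cut off to leave the ribosomal protein. RpL40 had 130, 73.2, 156 and 184 in neuroblast replicate 1 and 296, 228, 349 and 565 in replicate 2. RpS27A had 95.3, 30.4, 127 and 278 in replicate 1 and 289, 177, 335 and 633 in replicate 2. Both dipped at 3 h and were highest at 12 h in each replicate, and neither passed the test (slopes 0.21 and 0.26, edgeR adjusted p = 0.330 and 0.104).

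RpL35, RpS28b and RpS10b were on the m6A target list of the study, which also mapped this RNA methylation. RpL35, of the large subunit, had 118, 83.8, 243 and 416 in neuroblast replicate 1 and 223, 217, 298 and 453 in replicate 2, with a slope of 0.27 ± 0.08 (SE, n = 8, edgeR adjusted p = 0.0721). RpS28b, of the small subunit, had 234, 114, 296 and 469 in replicate 1 and 197, 164, 259 and 442 in replicate 2, with a slope of 0.25 ± 0.07 (SE, n = 8, edgeR adjusted p = 0.0917). RpS10b had 219, 247, 554 and 739 in replicate 1 and 295, 356, 637 and 705 in replicate 2, with a slope of 0.28 ± 0.07 (SE, n = 8, edgeR adjusted p = 0.0397). All 3 had both 12 h libraries above both pulse libraries, and RpS10b alone of them passed.

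Other genes of the translation machinery were counted in the same fit. The ribosomal proteins that the symbol rule misses, sta (a small-subunit protein) and Rack1 (a scaffold on the small subunit), both rose, with slopes of 0.27 and 0.26. Of 11 elongation factors and related genes whose mRNAs are regulated like those of ribosomal proteins in animals, 9 had positive slopes (median 0.22) and 4 rose: eEF1alpha1 (0.25) and eEF1gamma (0.24), which bring tRNA to the ribosome or recharge the factor that does, eEF2 (0.22), which moves the ribosome along, and pAbp (0.24), the poly(A)-binding protein. Of 13 ribosome biogenesis genes 12 had negative slopes (median -0.28) and none passed, with Non1 at 0.22 as the exception. By edgeR 1 of the 13 was higher and 1 lower at an unadjusted p under 0.05, and DESeq2 called 1 higher and none lower. Of 71 mitochondrial ribosomal protein genes tested none passed by edgeR (0 at an unadjusted p under 0.05, 2 higher by DESeq2) and the median was -0.01, or 0.02 with DESeq2 size factors. With nuclear-encoded total counts none of the genes of these lists passed.

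Markers of tissues outside the brain were abundant in the neuroblast libraries, and some of them rose in the same fit. The muscle markers (Mhc, wupA, up, Mlc2 and Tm2) had 5 of 5 positive slopes (median 0.20), 4 of them past the threshold, and the fat body markers 4 of 4 tested (median 0.25), 2 past it, while none of either list passed with nuclear-encoded total counts. The summed muscle level in neuroblast replicate 1 was 23376 at the pulse, 10895 after 3 h, 11031 after 6 h and 16688 after 12 h, and in replicate 2 it was 24298, 25474, 41521 and 71611. On the full nuclear-encoded total the muscle level was lower at 12 h than at the pulse in replicate 1 and higher in replicate 2. Ribosomal RNA took 15.2% of the replicate 1 total at the pulse and 64.1% at 12 h. On a total that leaves it out, the muscle level of replicate 1 would be higher at 12 h than at the pulse, as in replicate 2.

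The summed fat body level (Lsp2, Lsp1alpha, Lsp1beta, Lsp1gamma and Fbp1) was 11688, 61823, 61614 and 53754 in replicate 1. In replicate 2 it was 10626, 13682, 15877 and 8195. At 12 h it was thus higher than at the pulse in replicate 1 and lower in replicate 2. Fbp1 was at 0 in all 8 neuroblast libraries. Blood cell markers summed to 477 to 6328 in neuroblasts, with 3 of 4 positive slopes and none called by edgeR (1 higher at an unadjusted p under 0.05, 2 higher by DESeq2). Glia markers summed to 183 to 639, imaginal disc markers to 1.34 to 606. The part of these tissues in the members' slopes was not tested, and fewer cells of a type and less RNA per cell cannot be told apart in these bulk samples.

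In neurons no member passed in either direction. Of 89 members tested 32 had a positive slope and 57 a negative one, with a median of -0.13 log2 per hour against 0.21 for all 11800 genes, of which 0% passed in either direction. By edgeR no member was higher and 1 was lower at an unadjusted p under 0.05 (RpL9, a large-subunit protein, slope -0.67, adjusted p = 0.220), against 8.74% and 1.64% of all genes, and DESeq2's test called 28 lower and none higher, against 8.69% and 3.02% of all genes. From replicate 2 alone edgeR called 4 of 92 members higher and 3 lower, against 21.3% and 1.24% of all genes. Without the 12 h library of replicate 1 it called 3 of 92 higher and none lower, against 19.1% and 0.0709% of all genes. The sign of the median followed the scaling, at 0.12 with nuclear-encoded total counts and -0.48 with DESeq2 size factors. Relative to all genes the members' median was lower by 0.18 to 0.65 in the 11 settings run on the neuron libraries other than leaving libraries out. It was lower by 0.94 from replicate 2 alone and higher by 0.05 from replicate 1 alone, so its direction turned with the replicate. Nuclear genes with at least 10 counts numbered 2277, 6260, 9428 and 14005 in neuron replicate 2, in order of chase time. In neuron replicate 1 they numbered 907, 6389, 3445 and 5185. The TMM factors of the neuron fit ran from 0.168 in the pulse library of replicate 2 to 6.32 in its 12 h library. The part of these differences between libraries in the all-gene median was not tested.

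The steepest neuron slopes rested on few libraries. RpL7, of the large subunit, had 0.803, 1.18, 8.30 and 6.26 nuclear CPM in neuron replicate 1 and 6722, 1321, 2159 and 783 in replicate 2, and its slope was -0.67 ± 0.36 (SE, n = 8, edgeR adjusted p = 0.519). RpS30, of the small subunit, had 0, 0.0737, 0 and 0 in replicate 1 and 0, 0.438, 74.6 and 48.7 in replicate 2, with a slope of 1.29 ± 1.18 (SE, n = 8, edgeR adjusted p = 0.779). For RpL7 the 12 h level was above the pulse level in replicate 1 and below it in replicate 2. Both neuron 12 h libraries lay above both pulse libraries for 31 members (33.7%), near the 36.5% of all nuclear genes, and none showed the reverse, against 0.263% of all nuclear genes.

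The difference in slope between the cell types was tested itself, with neuroblast minus neuron as the sign. Of 90 members 76 had a higher slope in neuroblasts, with a median difference of 0.40 log2 per hour against -0.47 for all 12814 genes. By edgeR no member passed, against 0.0546% of all genes higher and 0.507% lower, with 10 members higher and 1 lower at an unadjusted p under 0.05 (1.40% and 12.9% of all genes), and DESeq2's test called 58 higher and 4 lower, against 7.59% and 12.5% of all genes. The largest differences were those of RpL7 at 0.89 ± 0.32 (SE, n = 16, edgeR adjusted p = 0.145) and RpS10a, a small-subunit paralogue, at -1.65 ± 0.82 (SE, n = 16, edgeR adjusted p = 0.325). RpS10a had counts in 4 libraries only, 98 at the neuroblast pulse of replicate 2, 396 at neuron 3 h of replicate 1, and 11507 and 137 at neuron 6 and 12 h of replicate 2. With libraries left out its estimate ran from -3.91 to 1.06, so its sign was not fixed. With nuclear-encoded total counts the median difference of the members was -0.0049, and members lay 0.66 to 1.22 above all genes over the 12 settings other than leave-one-out. The all-gene side of that gap includes the neuron libraries, which differed widely in how many genes had at least 10 counts. The part of this in the gap was not tested.

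Mean levels over the time points did not separate the cell types for nearly all members. Of 90 members 58 were fitted higher in neuroblasts (median 0.76 log2, against 0.01 for all genes) and none rose past the threshold, against 0.109% of all genes, with 2 members higher and 5 lower at an unadjusted p under 0.05 (3.98% and 12.7% of all genes) and 2 called higher by DESeq2 (7.17% of all genes). In the other direction 1 member passed, against 0.874% of all genes, and DESeq2 called 4 (16.3% of all genes). No member had all 8 neuroblast libraries above or below all 8 neuron libraries, against 0.36% and 0.0346% of all nuclear genes. Against neuron replicate 1 alone, 57 members lay above it in all 8 neuroblast libraries and none below (4.86% and 0.782% of all nuclear genes), and against neuron replicate 2 alone none lay above and 2 lay below (0.498% and 1.55%). The answer thus changed with the neuron replicate: the median difference was 8.01 without replicate 2 of either cell type and -0.22 without replicate 1.

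RpL22-like was the member called lower in neuroblasts, on counts from neuron replicate 2 alone. It is a paralogue of RpL22 known for its use in the fly testis. It had 0 counts in all 8 neuroblast libraries and in all 4 libraries of neuron replicate 1, and 5, 46215, 16 and 1915 counts at the pulse, 3, 6 and 12 h of neuron replicate 2. It thus passed the filter on low counts only through neuron replicate 2, so its test cannot show a difference between the cell types. The summed neuron level was at least 3361-fold higher than the floor of 3 counts over the 8 neuroblast libraries, and at least 182-fold higher without the 3 h library of replicate 2, which held 96.0% of the counts. Its edgeR adjusted p was 0.0445 with all 16 libraries, 0.390 without that one and 0.121 without the 12 h library of replicate 2, and it was under 0.05 in 10 of 17 fits with libraries left out. Without neuroblast libraries at 3 h of replicate 1 or 2, 6 h of replicate 2 or 12 h of replicate 2 it was 0.0807, 0.0724, 0.0633 and 0.0548, and without replicate 1 of both cell types 0.0819. Over the other alternatives it ranged from 1.89e-33 by DESeq2 to 1, with 0.132 under nuclear-encoded total counts.

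RpL36, of the large subunit, was the other member below every library of neuron replicate 2. It had 30.8, 81.8, 108 and 120 in neuroblast replicate 1, 107, 84.5, 115.1 and 93.0 in neuroblast replicate 2, and 324, 398, 469 and 294 in neuron replicate 2. In neuron replicate 1 it had 0, 26.6, 0.353 and 0.123, below every neuroblast library, and the fit over all libraries gave -2.06 ± 2.01 (SE, n = 16, edgeR adjusted p = 0.675). RpS30 had the largest positive estimate, 6.06 ± 2.27 (SE, n = 16, edgeR adjusted p = 0.154). Its neuroblast levels were 11.8, 12.3, 87.3 and 221 in replicate 1 and 191, 159, 243 and 343 in replicate 2, and it was low or at 0 in the neuron libraries but for 74.6 and 48.7 at 6 and 12 h of replicate 2.

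Members spanned a wide range of levels. The 5 with the highest mean over the 16 libraries were RpL7, RpS3A, RpL5, RpL4 and RpS6, at 1064, 986, 966, 718 and 690 nuclear CPM, not adjusted for transcript length. The first place of RpL7 rested on the neuron pulse library of replicate 2, where it held 27.3% of member counts. RpL5, which binds the 5S rRNA, had 776 to 1730 in neuroblast replicate 1 and 1183 to 2733 in replicate 2, and was the first or second most abundant member in all 8 neuroblast libraries. RpS3A, of the small subunit, had 680 to 1726 in neuroblast replicate 1 and 1560 to 2880 in replicate 2, and shared those first places with RpL5. RpS6, the substrate of S6 kinase, had 178, 220, 483 and 1029 in neuroblast replicate 1 and 684, 567, 1114 and 1583 in replicate 2, and RpL4, which lines the exit tunnel, had 114, 279, 315 and 877 and then 1089, 1144, 1321 and 2630. Both were highest at 12 h in each replicate.

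Levels of different genes can be compared only per length. As nuclear CPM per kilobase of the leading transcript, averaged over the 8 neuroblast libraries, RpS3A (1861), RpL5 (1440), RpL10 (1273) and RpL15 (1010) stood highest. Averaged over neuron replicate 2 the order was led by RpS20 (2372), RpL7 (2353), RpS6 (1349) and RpL9 (1330). Single libraries decided parts of this order, since RpL7 and RpL9 had 6722 and 2570 nuclear CPM at the neuron pulse of replicate 2, and at most 2159 and 639 in the other 3 libraries of that replicate. The 3 lowest members were RpS28-like, RpS28a and RpL37-2, with 0 counts in every neuroblast library and at most 7.24, 7.15 and 6.05 nuclear CPM in neurons. In all, 6 members had 0 counts in the 8 neuroblast libraries together, which allows a level of up to 0.0218 (3 counts in their summed total): RpL10Aa, RpL22-like, RpL37-2, RpS19b, RpS28-like and RpS28a.

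**Figure D4:**
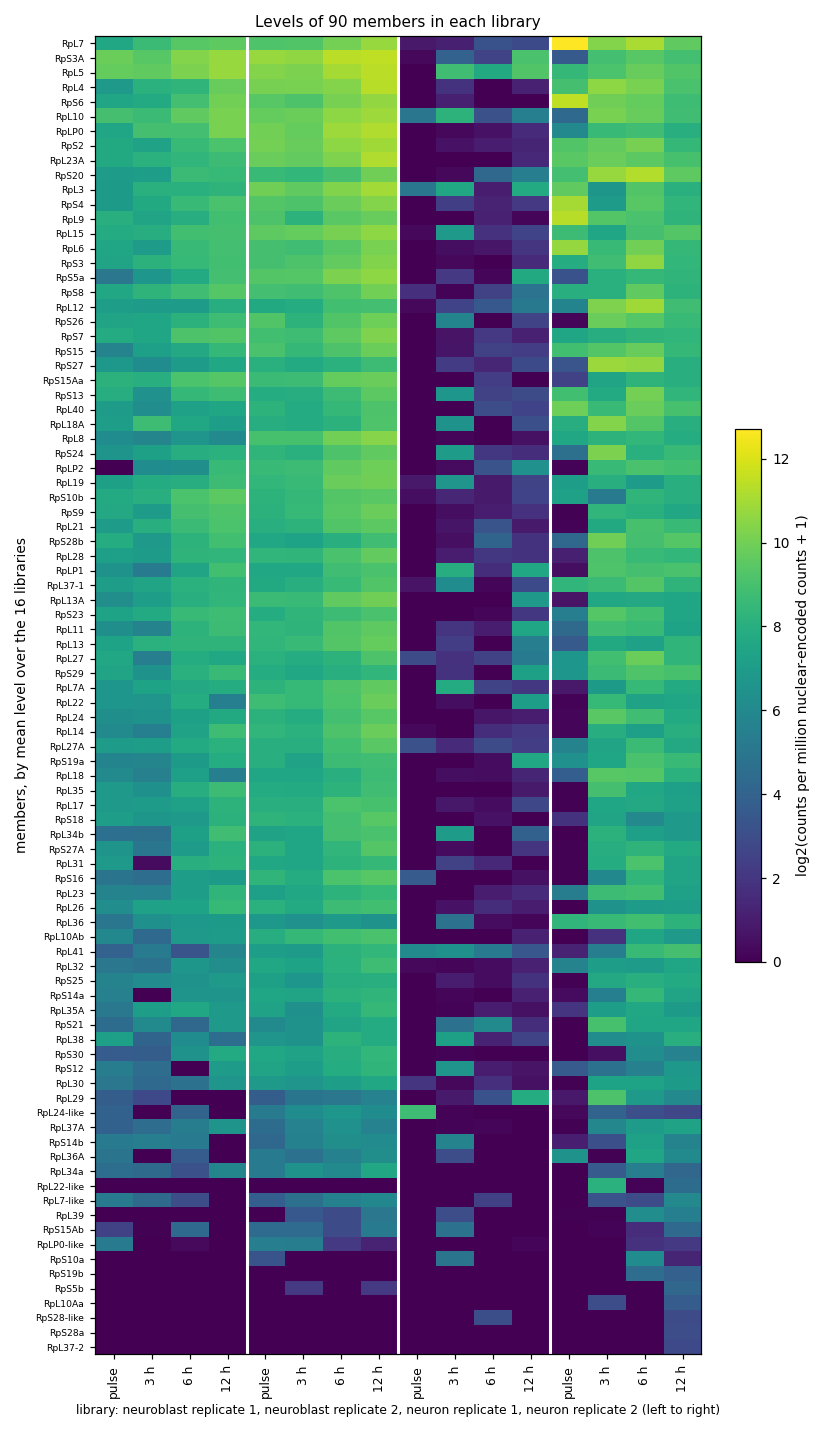
Levels of 90 of the 92 members (rows, by mean level) in the 16 libraries (columns), as log2 of nuclear CPM plus 1. Columns brighten towards 12 h in both neuroblast blocks, and most cells of neuron replicate 1 are dark, with 9 to 59 members at 10 counts or more.

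Within the summed members, shares do not depend on scaling between libraries. In neuroblasts the first 5 members made up 19.5 to 25.9% of member counts and the large subunit 53.3 to 59.8%. In neuron replicate 2 the pulse library stood apart, with 64.6% in 5 members and RpL7 alone at 27.3%, against 14.8 to 22.9% in the later 3 libraries. In neuron replicate 1 the first 5 held 50.9 to 96.0%, and at the pulse RpL24-like, named for its likeness to RpL24, held 72.6%.

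Ranks of members were much alike among neuroblast libraries, with Spearman correlations over the 92 genes from 0.73 to 0.97 in 28 library pairs. They were 0.52 to 0.72 between neuroblast libraries and neuron replicate 2, 0.58 to 0.84 within neuron replicate 2, and -0.01 to 0.62 between the neuron replicates. These correlations are across genes that share libraries and lengths, and are descriptions. Of members with at least 100 counts in 1 neuroblast replicate, 1.205 to 8.43% had less than 1 count in the other, against 21.4 to 46.1% of all nuclear genes. For single transcripts of members it was 19.1 to 27.2%, and in 28.1 to 44.8% of members with several transcripts the leading transcript was not the same in both neuroblast replicates. The sums per gene were therefore more alike between replicates than the transcripts they came from.

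Paralogue pairs were mostly carried by 1 gene. RpL22-like, RpS19b, RpS28a, RpL37-2 and RpL10Aa had none of their pair's counts in any neuroblast library, and RpS5b and RpS10a had at most 0.508 and 2.91%. RpL7-like held 0 to 15.0% of its pair (median 3.63%), RpL24-like 0 to 23.6% (median 10.4%), RpS15Ab 0 to 4.94% and RpLP0-like 0 to 16.5%. RpL34b was the larger partner of RpL34a in every neuroblast library, at 50.4 to 95.0%. RpS14b ranged from 0 to 100% of the pair with RpS14a, its tandem copy with nearly the same coding sequence. Counts of such close copies are uncertain, since the estimated counts split reads between them.

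In neuron replicate 2 the minor partners took more in some libraries. RpL22-like reached 42.7% of 108334 pair counts and RpL10Aa 73.6% of 1634 at 3 h, and RpS10a 18.3% of 62747 at 6 h, with medians over that replicate of 16.3, 9.66 and 0.304%. RpL24-like held 61.8% of only 68 pair counts at the pulse and 1.67 to 2.52% in the later 3 libraries, below the neuroblast median of 10.4%. The differences between cell types in these shares were not tested.

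**Figure D5:**
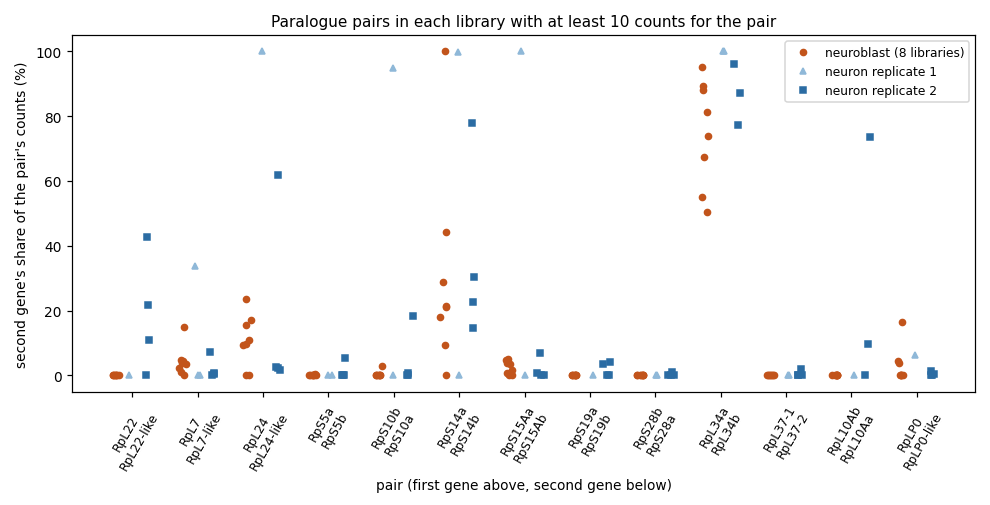
Share of the second gene in the counts of each paralogue pair (y axis, percent; x axis, pairs), 1 point for each library with at least 10 counts for the pair. RpL34b holds at least 50.4% of its pair in all 8 neuroblast libraries, while RpL22-like is at 0 there and reaches 42.7% in neuron replicate 2.

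A one-phase decay through the pulse mean could be fitted to few members in neuroblasts. With values limited to 480 min, 1 of 85 members had a half-life under the limit (RpLP0-like, 148 min) against 29.7% of all 10042 genes, since levels that rise over the chase give none. In neurons 36 of 89 members (40.4%) had one under the limit, against 13.2% of all 11800 genes. The share was 6.74% with nuclear-encoded total counts and 5.62% from replicate 1 alone, against 5.87% and 5.40% of all genes. The difference between members and all genes was thus nearly gone in both. It remained with only the leading transcript (31.5% against 11.6%) and from replicate 2 alone (39.3% against 11.2%). These half-lives are descriptions with no test.

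Members shared features the rule did not use. Their leading transcripts had a median length of 655 bases (range 288 to 1610) against 1622 for all 13895 protein-coding genes and 740 for the mitochondrial ribosomal protein genes. On the same strand, 28 members (30.4%) held snoRNA genes inside their span, 74 in all, against 0.605% of protein-coding genes and none of the 73 mitochondrial ribosomal protein genes. RpS5a held 14 and RpS7 held 7. Many snoRNAs guide the modification of rRNA and are cut from introns. The members lay on chromosome arms 2L (19), 2R (21), 3L (14), 3R (23), on chromosome 4 (1) and on X (14).

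The non-member genes whose level followed the summed members most closely over the 16 libraries were RFeSP (Spearman 0.96), eEF1gamma (0.95), Pglym78 (0.94), ND-39 (0.91) and Ahcy (0.91). RFeSP and ND-39 encode parts of the respiratory chain, Pglym78 a glycolytic enzyme and Ahcy an enzyme of methyl group metabolism. The correlations are descriptions over libraries that share the low levels of neuron replicate 1. Over the 8 neuroblast libraries alone they were 0.98, 0.95, 0.88, 0.93 and 0.86 in the same order.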

How the data were processed

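RNA captured after tagging was sequenced in 16 libraries. Per the labels, the authors trimmed reads with Trimmomatic and made the deposited estimated counts per transcript with kallisto (versions not given in the sources used here), unnormalized, on build BDGP6. Rows were matched to genes through the Ensembl 115 annotation (BDGP6.54), with 30819 of 31049 rows matched, and the unmatched rows held 0.0116 to 0.332% of counts. Estimated counts were summed per gene and rounded. The main test was edgeR 4.0.16 (R 4.3.3), quasi-likelihood, with TMM scaling, filterByExpr with a minimum count of 10, and Benjamini-Hochberg adjustment over all genes, threshold 0.05. The fits were run on simulated counts of far smaller spread than these data. That run checks the code and cannot show the error rate or power here. DESeq2 1.42.0 was the alternative test. Slopes used hours of chase as a number within each cell type, and the other fits used all 16 libraries. Levels are nuclear CPM, counts per 1000000 nuclear-encoded counts. Total counts ranged from 11053940 to 211109573. The spread was wide, with a median biological coefficient of variation of 1.80 in neuroblasts and 2.98 in neurons. Named members were those of highest or lowest level, past the threshold, steepest, stalk genes, ubiquitin fusions, paralogue pairs and m6A targets. The members and lists were chosen with earlier results of these data known. Sequences are not used here. Some members are counted in the totals but not reported here by name.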

Additional observations from a re-analysis of the deposited data

How the results depend on the processing

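In neuroblasts the count of members that rose (15) was 72 with DESeq2 size factors (954 of all genes) and 75 by DESeq2's test. It was 0 with total counts, nuclear-encoded total counts, nuclear-encoded counts without ribosomal RNA, only the leading transcript, or 12 h against pulse. The median slope (0.25) was 0.44 with DESeq2 size factors or test, 0.12 with total or nuclear-encoded total counts and 0.17 without ribosomal RNA. All 15 calls were shared under DESeq2 size factors, no filter, a stricter filter and DESeq2's test. With libraries left out the count ran from 0 to 50 and the median from 0.22 to 0.30.

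With the replicate number as a block, edgeR called 53 members higher in neuroblasts (145 of all genes, median 0.26), and 0 with the block and nuclear-encoded total counts (median 0.12). For the mean level it called 9 higher and 0 lower (188 and 186 of all genes). Deviations of same-numbered libraries correlated at 0.05 to 0.28, all positive but not above 0.1 in every pair, so the main fits did not take the numbers as pairs. The members' share was still higher in replicate 2 than in replicate 1 at every time in both cell types. Fits without the block count that gap as spread.

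In neurons DESeq2's test called 28 lower, with 8.69% of all genes. The median slope (-0.13) was -0.48 with DESeq2 size factors or test, 0.10 with total counts, 0.12 with nuclear-encoded total counts and 0.13 without ribosomal RNA. With libraries left out 0 to 4 rose, 0 to 3 fell and the median ran from -0.25 to 0.19. For the difference in slope 7 members were higher with DESeq2 size factors, with 0.874% of all genes. DESeq2's test called 58 higher and 4 lower, with 7.59% and 12.5% of all genes. With neuron replicate 2 alone the members' median difference was 0.40, against -0.82 for all genes. The median slope difference of the main fit (0.40) was 0.95 with DESeq2 size factors or test and 0.015 with total counts. It was -0.0049 with nuclear-encoded total counts and 0.041 without ribosomal RNA. With libraries left out it ran from 0.088 to 0.53, with 0 to 1 higher.

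For the mean level DESeq2's test called 2 higher and 4 lower, with 7.17% and 16.3% of all genes. The leading transcript gave 2 lower, with 0.413% of all genes. Total counts, nuclear-encoded total counts, counts without ribosomal RNA and the pulse libraries gave 0 lower. All genes called lower were then 0.0780, 0.804, 0.695 and 0%, in that order. With libraries left out 0 to 1 were lower and the median ran from -0.22 to 8.01. The share at 12 h over pulse without ribosomal RNA was 6.58 and 2.70 in the neuroblast replicates. Neuron half-lives under the limit were 6.74% with nuclear-encoded total counts. From 1 replicate alone they were 5.62 to 39.3% in neurons and 1.18 to 7.06% in neuroblasts. The cause of these changes was not tested, and neuron replicate 1, with 9 to 59 members at 10 counts or more, limits every comparison with neurons. Scaling without ribosomal RNA, the block with nuclear-encoded scaling and neuron replicate 2 alone were chosen after seeing the data.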
